A study of Mus musculus with 6 samples.

Results

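The genes of the TGF-beta ligands and their receptors, of activin and inhibin subunits and of the activin antagonist follistatin were followed in ectopic lesions. The lesions were of a mouse endometriosis model and grew from donor tissue with or without a Cre deletion of Dnmt3a, a de novo DNA methyltransferase. The 10 genes were taken by symbol from the count table: Tgfb1, Tgfb2, Tgfb3, Tgfbr1, Tgfbr2, Tgfbr3, Inhba, Inhbb, Inha and Fst. All 10 were found among the 56884 genes counted, and all 10 were among the 18177 genes with enough counts to be tested.

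TGF-beta ligands are secreted in a latent form and signal through a complex of type II and type I receptor kinases, which phosphorylate SMAD2 and SMAD3. Activins are dimers of inhibin beta subunits that reach the same SMADs through their own receptors. Inhibins are dimers of an alpha and a beta subunit and oppose activins, and follistatin binds activins and keeps them from their receptors. In the endometrium these factors are known for roles in tissue repair after shedding, in decidualization and in fibrosis of ectopic tissue.

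RNA was sequenced from 3 WT and 3 KO ectopic lesions, each lesion as 1 library, numbered here as in the labels (WT1 to WT3 and KO1 to KO3). Donors of WT tissue were Dnmt3a f/f, and donors of KO tissue were Dnmt3a f/f:PR-Cre/+, both 8-week-old females. Recipients of both groups were wild-type females that carried an estrogen pellet, and the labels give 4 weeks as the time. The labels describe an intraperitoneal injection of uterine fragments, whereas the methods describe fragments sutured to the mesenteric membrane and a different day of collection. Cre under the progesterone receptor promoter acts only in cells that express that receptor, and cells of the recipient keep an intact Dnmt3a. Dnmt3a was still counted in every KO lesion, at 30.3 to 36.2 CPM against 43.9 to 52.7 CPM in WT. Its log2 fold change, KO over WT, was -0.57 (edgeR quasi-likelihood test, unadjusted p = 0.0058, adjusted p = 0.321). By antibody staining, the paper reports no Dnmt3a protein in the epithelium or stroma of KO lesions.

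Levels are given as CPM, counts divided by the TMM-scaled library total, when lesions are compared, and as TPM, which also divides by gene length, when genes are compared. Each library held 45370342 to 57239184 counts. Defining endometrial genes were present in all 6 lesions, with Pgr at 135 to 255 CPM, Esr1 at 93.2 to 445 CPM and Epcam at 211 to 468 CPM, whereas the gland gene Foxa2 was low, at 0 to 2.62 CPM. Several libraries held markers of other tissues. The summed skeletal muscle markers reached 32228 CPM in WT1 and 35128 CPM in WT3, against 8.76 to 21.5 CPM in the other lesions. WT3 also held pancreatic acinar markers, at 5052 CPM against 7.19 to 16.0 CPM. WT2 held neutrophil markers, at 9846 CPM without Ltf (a gene that uterine epithelium also secretes), against 37.2 to 479 CPM. KO2 alone held counts of the granulosa cell genes Amh, Cyp19a1, Fshr and Serpina5.

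Because Dnmt3a methylates cytosine in CG context, the DNA before the start of 3 members is shown: Tgfb1 as the ligand with the lowest KO to WT ratio, and the 2 activin subunits, whose fold changes had opposite signs. RefSeq windows of 250 bases before the start (GRCm38.p6) were found for 7 of the 10 genes. Each is written 5′ to 3′ on the strand of the gene with CG in capitals, for Tgfb1 at chr7:25686752-25687001, plus strand, for Inhba at chr13:16011601-16011850, plus strand and for Inhbb at chr1:119422249-119422498, minus strand.
Tgfb1: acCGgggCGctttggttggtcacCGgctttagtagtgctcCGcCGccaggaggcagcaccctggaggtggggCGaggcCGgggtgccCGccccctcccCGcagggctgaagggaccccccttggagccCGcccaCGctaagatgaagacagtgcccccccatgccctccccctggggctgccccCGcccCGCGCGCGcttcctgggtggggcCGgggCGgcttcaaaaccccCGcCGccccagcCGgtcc
Inhba: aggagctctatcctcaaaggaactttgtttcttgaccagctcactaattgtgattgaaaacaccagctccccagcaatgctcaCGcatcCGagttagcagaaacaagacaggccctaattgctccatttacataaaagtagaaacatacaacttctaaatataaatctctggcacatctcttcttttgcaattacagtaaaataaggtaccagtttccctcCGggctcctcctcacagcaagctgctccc
Inhbb: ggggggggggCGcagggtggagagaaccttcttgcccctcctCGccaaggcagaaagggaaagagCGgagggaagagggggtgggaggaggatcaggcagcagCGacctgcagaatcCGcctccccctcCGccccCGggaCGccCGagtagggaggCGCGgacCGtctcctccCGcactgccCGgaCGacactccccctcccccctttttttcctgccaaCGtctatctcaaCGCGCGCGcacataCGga
The motif CG reads the same on both strands and was found 21 times for Tgfb1, 3 times for Inhba and 21 times for Inhbb. Over all 32851 windows of this length the median was 6, and 92.1% held at least 1 CG. A count of 21 or more was reached by 16.3% of the windows, and 37.8% held 3 or fewer. Among the other members the count was 12 for Tgfbr2, 8 for Tgfb2, 4 for Inha, and 29 and 3 for the 2 starts of Tgfbr1. DNA methylation was not measured in these lesions, and these counts describe the reference sequence only.

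Over all 6 lesions, Tgfbr2 had the highest mean level of the 10 genes and Fst the lowest. The mean was 191 TPM for Tgfbr2, 98.2 for Inhbb, 60.2 for Tgfbr3, 54.4 for Tgfb3 and 50.7 for Tgfbr1. It was 26.3 TPM for Inhba, 25.4 for Tgfb1, 20.6 for Tgfb2, 10.6 for Inha and 8.09 for Fst. The mean of Inha was carried by KO2, at 53.0 TPM against 0.850 to 3.96 TPM in the other 5 lesions, and Inha lay below Fst in each of those 5. Ranges over the lesions overlapped between all neighbours in this order, but within lesions some of the steps held throughout. Tgfbr2 exceeded Inhbb, Inhbb exceeded Tgfbr3 and Tgfbr1 exceeded Inhba in 6 of 6 lesions, and Tgfb2 exceeded Inha in 5. Neighbours without a steady order were Tgfbr3 and Tgfb3 (the first higher in 3 lesions), Tgfb3 and Tgfbr1 (4), Inhba and Tgfb1 (4), and Tgfb1 and Tgfb2 (3). With the length of the longest transcript in place of all exons, the pairs Tgfb3 and Tgfbr1, Inhba and Tgfb1, and Inha and Fst changed places.

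Between KO and WT lesions, 0 of the 10 genes had an unadjusted p-value under 0.05 in edgeR's quasi-likelihood test, the threshold used here for a call. Over all genes tested, 14.7% passed that threshold, 8.16% lower and 6.55% higher in KO lesions. After Benjamini-Hochberg adjustment 0 of the 10 genes were called by edgeR, by DESeq2 or by limma voom, where edgeR called 0.0055% of all genes. At an unadjusted p-value under 0.05, limma voom called 5 of the 10 genes, all lower in KO lesions, where it called 15.9% of all genes lower and 14.3% higher. It was run with quality weights, which let a deviating lesion count less, so these calls are not independent of the fit without KO3 below. DESeq2 called 0, with no p-value given for Inha, and called 7.74% of all genes lower and 4.98% higher. Of the 10 log2 fold changes, 8 were below 0 and 2 above, and their median was -0.21 against 0.014 over all genes tested. Groups of lesions were separated without overlap for 0 of the 10 genes, against 19.4% of all genes tested (8.74% with all WT lesions higher and 10.7% with all KO lesions higher). Exact two-sided permutation tests on log2 CPM gave p = 0.2 to 0.9 for the 10 genes, where the smallest p that 3 lesions against 3 allow is 0.1.

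**Figure D1:**
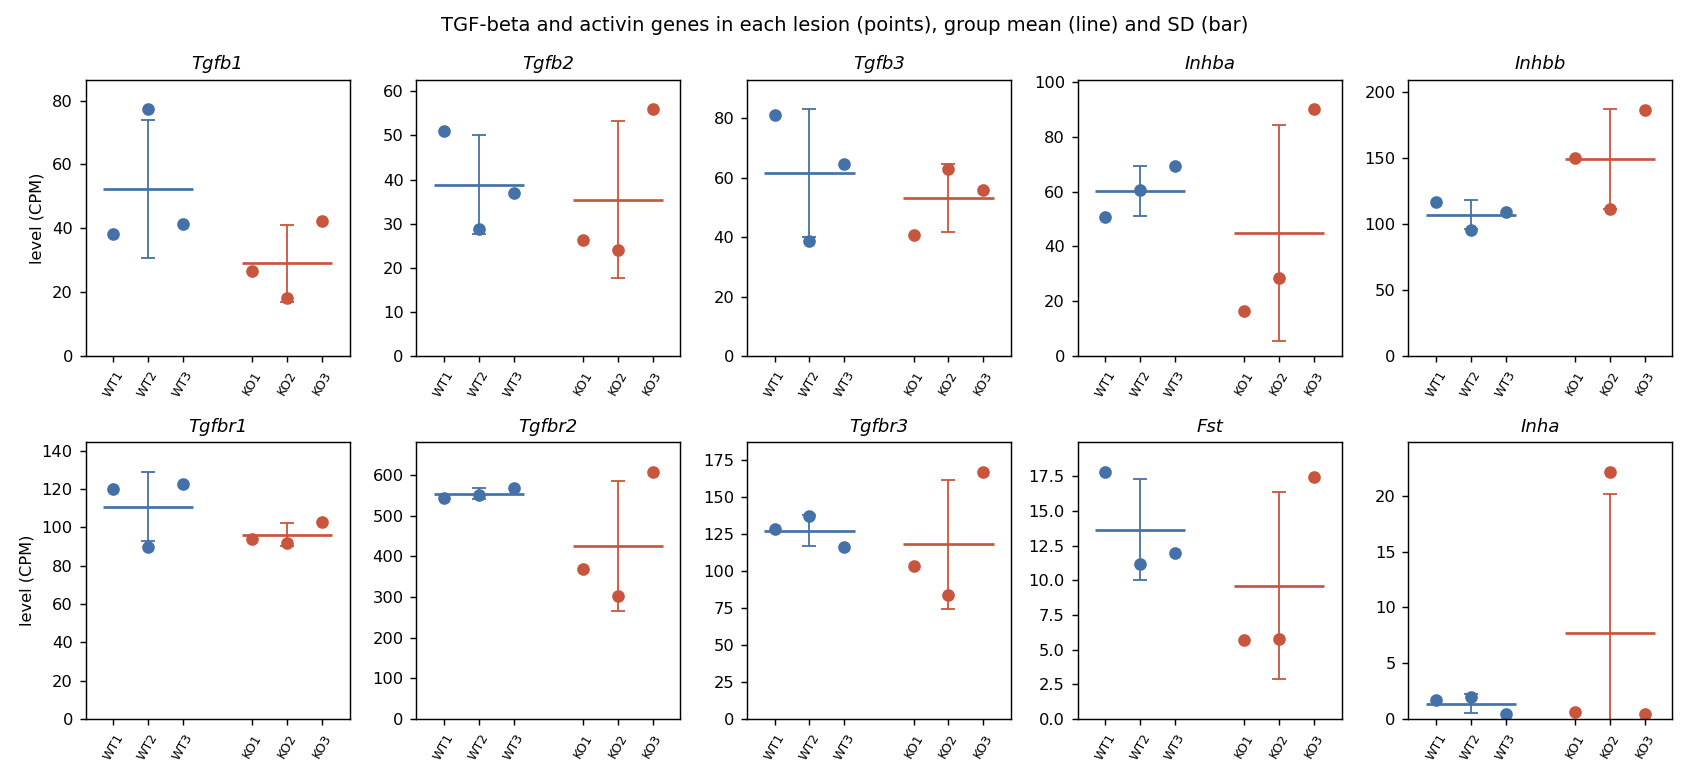
Level (CPM, linear axes from 0) of each of the 10 genes in each lesion, with WT in blue and KO in red, the group mean as a line and the SD as a bar that ends at the axis where it would pass below 0. KO1 and KO2 lay below all WT lesions for Tgfb1, Tgfb2, Tgfbr2, Tgfbr3, Inhba and Fst, while KO3 lay within or above the WT range for each of these genes.

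Tgfb1, the ligand most abundant in immune cells and platelets and on GRCm38 at chr7:25687002-25705077, was counted at 38.3, 77.2 and 41.4 CPM in WT1, WT2 and WT3 and at 26.5, 18.4 and 42.3 CPM in KO1, KO2 and KO3. WT2 was the highest lesion, KO1 and KO2 were the lowest, and KO3 lay just above WT1 and WT3, and the groups overlapped. Its log2 fold change, KO over WT from edgeR with its standard error (SE), was -0.85 (SE 0.41, edgeR adjusted p = 0.369). Without WT2 the log2 fold change was -0.45, and without KO3 it was -1.22 and passed the unadjusted threshold. WT2 also had the highest summed macrophage markers, at 2732 CPM against 542 to 1396 CPM in the other lesions, and the highest neutrophil markers. Their part in the level of Tgfb1 was not tested. In whole tissue, fewer cells of a type and less RNA per cell cannot be told apart.

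Tgfb2, a ligand of epithelial and stromal cells, stood at 50.9, 28.8 and 36.9 CPM in WT1 to WT3 and at 26.3, 24.0 and 55.9 CPM in KO1 to KO3. KO3 was the highest of all lesions and KO1 and KO2 were the lowest. Its log2 fold change was -0.13 (SE 0.39, edgeR adjusted p = 0.883). Its sign turned with single lesions: it was 0.11 without WT1, 0.046 without KO1 and 0.085 without KO2. Tgfb3, a ligand known from scarless repair and decidua, stood at 81.2, 38.6 and 64.6 CPM in WT1 to WT3 and at 40.6, 63.0 and 55.7 CPM in KO1 to KO3. The KO lesions lay between the lowest and the highest WT lesion, and its log2 fold change was -0.21 (SE 0.31, edgeR adjusted p = 0.752). Without WT1 it was 0.041. Tgfb3 shares its locus with Ttll5 on the other strand. Tgfb2, Inhba and Fst each share theirs with an antisense transcript, and Tgfbr3 with a pseudogene on the other strand. The kit marks strand, but whether strand was used in counting is not given in the sources used here.

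As shares of the summed TPM of the 3 TGF-beta ligands, Tgfb1 made up 18.8, 48.3 and 24.4% in WT1 to WT3 and 24.1, 13.8 and 24.3% in KO1 to KO3. Tgfb3 made up 59.4, 36.0 and 56.7% in WT and 55.0, 70.5 and 47.7% in KO lesions. Tgfb3 was thus the largest share in every lesion except WT2, in which Tgfb1 was. Neither share differed beyond the spread between lesions (exact permutation test, p = 0.4 for Tgfb1 and p = 0.6 for Tgfb3), nor did that of Tgfb2 (exact permutation test, p = 0.6).

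Among the receptors, Tgfbr1, the type I kinase that phosphorylates SMAD2 and SMAD3, varied least between lesions. It stood at 120, 89.9 and 122 CPM in WT1 to WT3 and at 93.8, 91.8 and 103 CPM in KO1 to KO3. WT2 was the lowest of all lesions. The log2 fold change was -0.20 with a 95% interval from -0.59 to 0.18 (edgeR adjusted p = 0.538). Without WT2 it was -0.33 and passed the unadjusted threshold (edgeR adjusted p = 0.305).

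Tgfbr2, the ligand-binding type II kinase, was tightly grouped in WT lesions, at 542, 550 and 568 CPM, but stood at 368, 302 and 607 CPM in KO1 to KO3. KO1 and KO2 lay below all WT lesions and KO3 above all of them. Its log2 fold change was -0.38 (SE 0.28, edgeR adjusted p = 0.523), and without KO3 it was -0.72 (edgeR adjusted p = 0.133). Tgfbr3, or betaglycan, a co-receptor that presents TGF-beta2 and also binds inhibin, also had KO1 and KO2 as the lowest lesions and KO3 as the highest. It stood at 128, 137 and 116 CPM in WT1 to WT3 and at 104, 83.6 and 167 CPM in KO1 to KO3. Its log2 fold change was -0.11 (SE 0.27, edgeR adjusted p = 0.859). It was 0.090 without KO2 and, past the unadjusted threshold, -0.44 without KO3. The TPM ratio of Tgfbr3 to the sum of Tgfbr1 and Tgfbr2 was 0.232, 0.259 and 0.201 in WT and 0.267, 0.251 and 0.283 in KO lesions, and the groups overlapped (exact permutation test, p = 0.2).

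Inhba encodes the beta A subunit of activin A. It lies at chr13:16011851-16031621 and, of the 10 genes, varied most between KO lesions after Inha. It stood at 50.7, 60.7 and 69.1 CPM in WT1 to WT3 and at 16.3, 28.6 and 89.9 CPM in KO1 to KO3. KO1 and KO2 were below all WT lesions, KO3 was above all of them, and the KO lesions spanned 5.51-fold against 1.36-fold in WT. The log2 fold change was -0.42 with a 95% interval from -1.92 to 1.08 (edgeR adjusted p = 0.751). Without KO3 it was -1.42 (edgeR adjusted p = 0.130), and without KO1 it was -0.012.

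Inhbb, the beta B subunit of activin B, lies at chr1:119415465-119422248 and was one of the 2 members with a fold change above 0. It stood at 117, 95.6 and 109 CPM in WT1 to WT3 and at 150, 111 and 187 CPM in KO1 to KO3. KO1 and KO3 lay above all WT lesions, and KO2 lay between WT1 and WT3. The log2 fold change was 0.48 with a 95% interval from -0.04 to 1.00, and its p-value was the lowest of the 10 genes (edgeR adjusted p = 0.355). It was called with upper quartile scaling (0.57), which moved the median of all genes to 0.11, and without KO2 (0.65). The TPM ratio of Inhba to Inhbb was 0.290, 0.423 and 0.422 in WT1 to WT3 and 0.0726, 0.171 and 0.321 in KO1 to KO3. KO3 lay between WT1 and the other WT lesions, and the difference of -1.23 on the log2 scale was not beyond the spread (exact permutation test, p = 0.2). Inhbb thus exceeded Inhba per length in all 6 lesions.

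Inha, the alpha subunit that makes inhibins and is made in quantity by granulosa cells of the ovary, was low in 5 lesions and high in KO2 alone. It was counted at 1.71, 1.98 and 0.427 CPM in WT1 to WT3 and at 0.667, 22.1 and 0.417 CPM in KO1 to KO3. KO2 held 1114 counts of the gene, against 20 to 88 in the other lesions. A log2 fold change of 2.49 came with an SE of 1.59 (edgeR adjusted p = 0.460), and without KO2 it was -1.33. Of the 7 granulosa cell markers, which include Inha and Inhba, 4 were at 0 in the other 5 lesions and were counted in KO2, at 1.47 CPM for Amh, 0.795 for Serpina5, 0.556 for Cyp19a1 and 0.238 for Fshr. Foxl2, which uterine stroma also expresses, was present in all 6 lesions and was highest in KO1. It stood at 2.37, 3.20 and 8.48 CPM in WT1 to WT3 and at 20.6, 14.8 and 8.50 CPM in KO1 to KO3. Inhba in KO2 lay below all WT lesions, as given above. Other superfamily genes known from the ovary, picked out after their values were seen, were highest in KO2, as were those 4 markers. Bmpr1b, a BMP receptor, stood at 32.0 CPM there against 0.912 to 3.33 CPM elsewhere. Amhr2, the receptor of anti-Müllerian hormone, stood at 5.01 CPM against 0.246 to 0.812 CPM, and the oocyte ligand Gdf9 at 3.42 CPM against 0.263 to 1.04 CPM. The part of ovarian tissue in the Inha level was not tested.

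Fst, or follistatin, stood at 17.8, 11.2 and 12.0 CPM in WT1 to WT3 and at 5.68, 5.76 and 17.4 CPM in KO1 to KO3. KO1 and KO2 were the lowest lesions, and KO3 was close to the highest, WT1. Its log2 fold change was -0.51 (SE 0.50, edgeR adjusted p = 0.632), and without KO3 it was -1.25 (edgeR adjusted p = 0.130).

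Set against the activin subunits it binds, follistatin was lower in all KO lesions. The TPM ratio of Fst to the sum of Inhba and Inhbb was 0.110, 0.0761 and 0.0717 in WT1 to WT3 and 0.0328, 0.0409 and 0.0655 in KO1 to KO3. Every KO lesion lay below every WT lesion, although KO3 and WT3 were close. The mean was 0.0858 ± 0.0208 (SD, n = 3) in WT and 0.0464 ± 0.0170 (SD, n = 3) in KO lesions, a difference of -0.92 on the log2 scale. An exact two-sided permutation test gave p = 0.1, the smallest that this design allows, and 0.4 after Benjamini-Hochberg adjustment over the 6 ratios and shares computed. With each lesion left out the difference ran from -1.20 to -0.70. The ratio is of messenger RNA and not of protein, and the limit on strand given above also applies to Fst and Inhba.

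**Figure D2:**
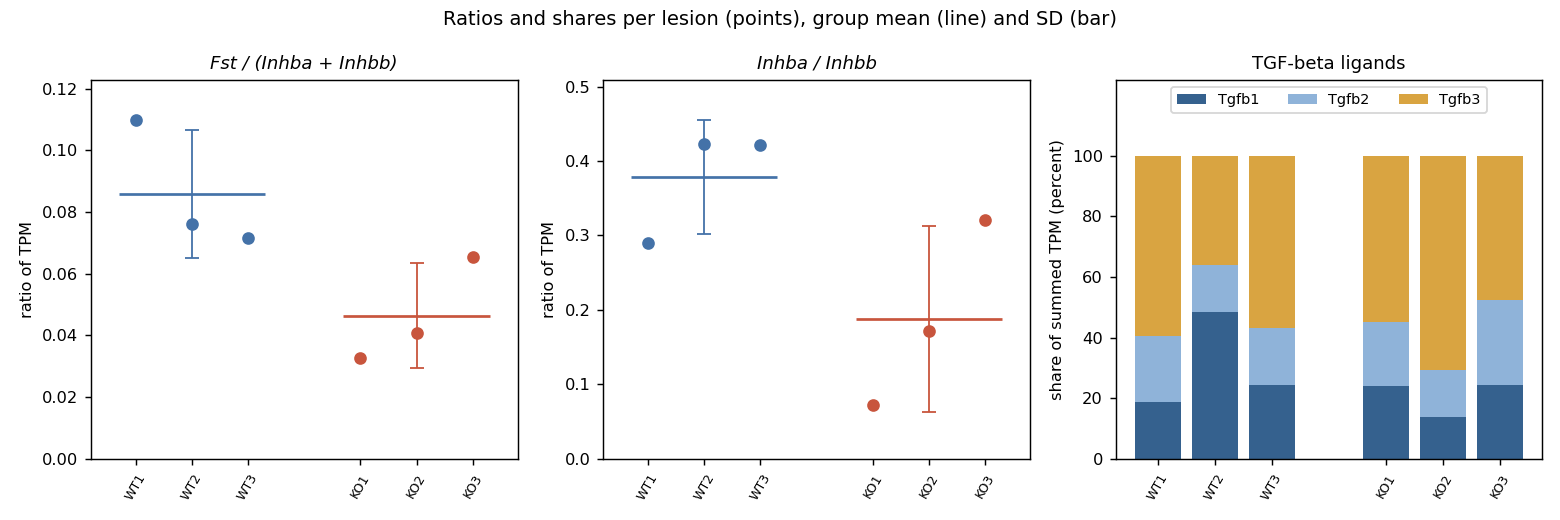
Per lesion, the TPM ratio of Fst to the sum of Inhba and Inhbb (left), the ratio of Inhba to Inhbb (middle), each with the group mean as a line and the SD as a bar, and the shares of Tgfb1, Tgfb2 and Tgfb3 in their summed TPM as stacked bars in percent (right). The left ratio is 0.0717 or more in WT and 0.0655 or less in KO lesions, while the groups overlap in the other measures.

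The 3 KO lesions did not share 1 pattern. KO1 and KO2 were both below every WT lesion for 6 of the 10 genes (Tgfb1, Tgfb2, Tgfbr2, Tgfbr3, Inhba and Fst), which was the case for 22.4% of all genes tested. KO3 was above every WT lesion for 5 genes (Tgfb2, Tgfbr2, Tgfbr3, Inhba and Inhbb), as for 24.9% of all genes tested, and it was the highest KO lesion for 8 genes, as for 37.7% of all genes tested. These counts were chosen after the values had been seen and describe the lesions only. Without KO3, edgeR called 5 of the 10 genes lower in KO lesions (Tgfb1, Tgfbr2, Tgfbr3, Inhba and Fst) at an unadjusted p-value under 0.05 and 0 after adjustment. In that fit 12.4% of all genes tested were lower and 11.5% higher.

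**Figure D3:**
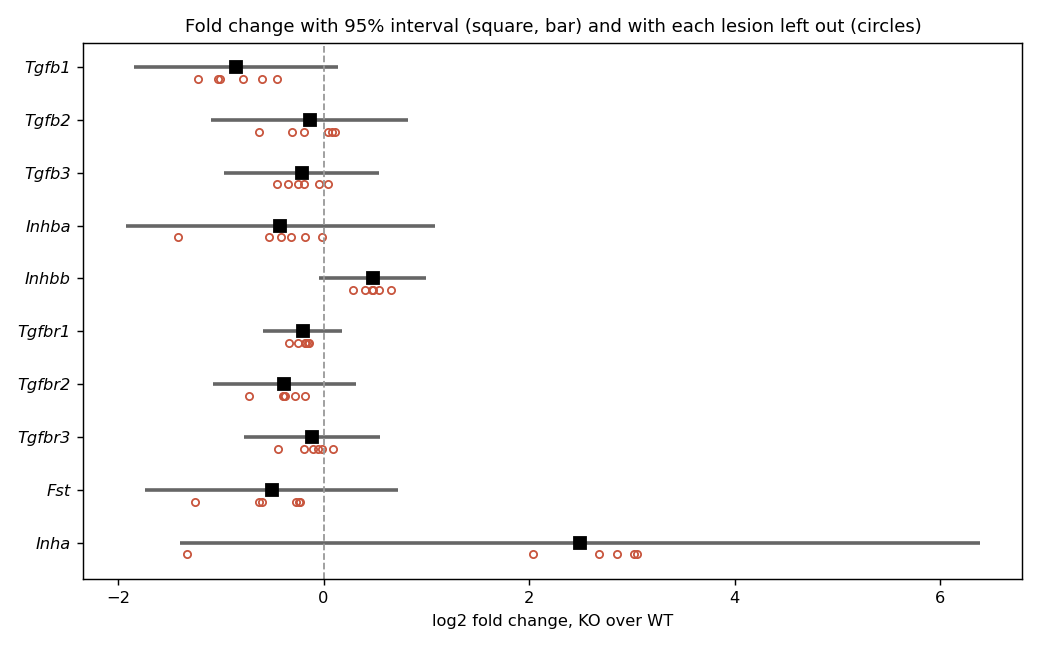
Log2 fold change of KO over WT for the 10 genes from edgeR (square) with its 95% interval (bar), and the same value with each of the 6 lesions left out in turn (open circles). All 10 intervals include 0, and the circles of Inhba, Fst and Tgfbr2 farthest to the left are those without KO3, while the circle of Inha below 0 is that without KO2.

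Markers of fibroblasts, endothelium, macrophages and T cells were also low in KO1 and KO2. The summed fibroblast markers, all 7 of them detected, stood at 1484, 1747 and 1526 CPM in WT1 to WT3 and at 713, 568 and 1756 CPM in KO1 to KO3. All 7 had KO1 and KO2 below every WT lesion and KO3 as the highest KO lesion. Of 7 endothelial markers 6 had KO1 and KO2 below every WT lesion, and their sum was 526 to 639 CPM in WT and 335, 241 and 679 CPM in KO1 to KO3. The same held for 7 of 8 macrophage markers and 8 of 8 T cell markers (7 of these 8 fell at an unadjusted edgeR p under 0.05), with summed macrophage levels of 744, 542 and 1396 CPM in KO1 to KO3 against 1171 to 2732 CPM in WT. The summed T cell markers stood at 7.43 to 25.2 CPM in KO lesions, against 32.7 to 94.3 CPM in WT. KO3, at 25.2 CPM, was the highest KO lesion for T cells but still below every WT lesion. No marker in these 4 lists was at 0 in any lesion. Summed neutrophil markers without Ltf did not overlap either, at 37.2 to 184 CPM in KO lesions and 214 to 9846 CPM in WT. Of the 8 single neutrophil markers, 4 had KO1 and KO2 below every WT lesion. Epithelial markers had another order, with sums of 2987 and 2807 CPM in KO1 and KO2 and 1544 CPM in KO3, against 1593 to 2436 CPM in WT. KO3 had the highest summed adipocyte markers, at 3581 CPM against 438 to 2382 CPM. The part of cell composition in the levels of the 10 genes was not tested.

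**Figure D4:**
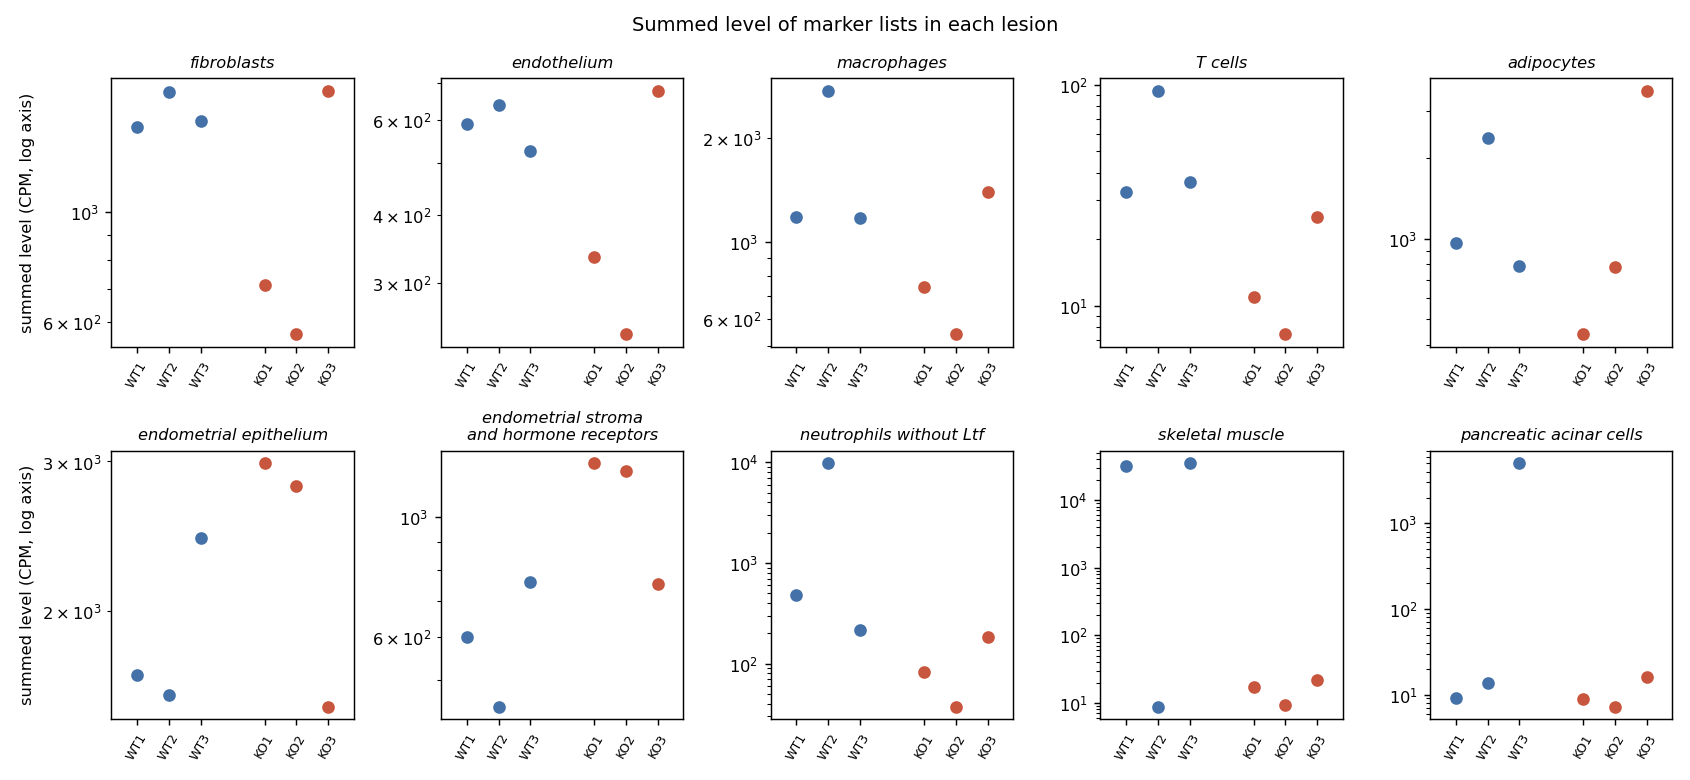
Summed level of each marker list in each lesion (CPM, log axes that differ between panels), with WT in blue and KO in red. KO1 and KO2 lie below all WT lesions and KO3 above them or near them for fibroblasts and endothelium, while skeletal muscle stands out in WT1 and WT3, pancreatic acinar cells in WT3 and neutrophils in WT2.

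Around these ligands and receptors, 97 other genes of the superfamily and its targets were examined in 6 lists, of which 90 were tested. By edgeR, 10 of the 90 fell and 1 rose in KO lesions at an unadjusted p-value under 0.05, beside the 8.16% and 6.55% of all genes tested given above. After adjustment over all genes 0 were called by edgeR, with a lowest adjusted p of 0.321, while limma voom called 0 and DESeq2 called 3 of the 90 (Smad3, Bhlhe40 and Id1) and also Mstn, which edgeR did not test. At an unadjusted p-value under 0.05, DESeq2 called 18 of its tested genes lower and 3 higher, Mstn among the lower ones, and limma voom 38 lower and 5 higher. Over all genes these methods called 7.74% and 15.9% lower and 4.98% and 14.3% higher, as given above. The median log2 fold change of the 90 was -0.34 against 0.014 over all genes tested. Groups of lesions did not overlap for 14 of the 90, of which 12 were lower in KO lesions. Over all genes tested, 19.4% did not overlap (8.74% with all WT lesions higher and 10.7% with all KO lesions higher). Genes named below for their p-value were picked from these same values, so their separation is not further evidence.

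Of the 10 other ligands of the activin arm, 6 were tested and 0 were called by edgeR, while DESeq2 called 1 lower (Mstn) and limma voom 1 higher. Mstn, or myostatin, a muscle ligand, was counted at 4.61 and 12.4 CPM in WT1 and WT3 and at 0 to 0.0450 CPM in the other lesions. WT1 and WT3 are the lesions with skeletal muscle markers. Of the 14 other receptors and co-receptors, 12 were tested and 0 were called by edgeR, while DESeq2 called 1 higher and limma voom 2 lower and 2 higher. Acvr1b, the type I activin receptor, stood at 94.1, 115 and 82.7 CPM in WT, against 167, 143 and 85.4 in KO lesions, with KO3 in the WT range (log2 fold change 0.44, adjusted p = 0.455). The type II activin receptors did not pass the test either, with log2 fold changes of 0.20 for Acvr2a (adjusted p = 0.668) and -0.38 for Acvr2b (adjusted p = 0.608). Endoglin (Eng), the TGF-beta co-receptor of endothelium, stood at 106, 123 and 90.0 CPM in WT, against 70.6, 41.3 and 133 in KO lesions (adjusted p = 0.667), with KO1 and KO2 lowest and KO3 highest as for Tgfbr2.

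Of 16 genes for latency, activation and extracellular antagonists, 15 had a log2 fold change below 0, with a median of -0.58, and 1 fell at the threshold, against 2 with DESeq2, 10 with limma voom and 9 without KO3. It was Itgav, the alpha V integrin that frees TGF-beta from its latent complex, at 335, 380 and 489 CPM in WT1 to WT3 and 212, 258 and 270 CPM in KO1 to KO3. All KO lesions lay below all WT lesions, with a log2 fold change of -0.70 (SE 0.20, edgeR adjusted p = 0.321). Ltbp1, which binds latent TGF-beta to matrix, did not pass (log2 fold change -0.33, adjusted p = 0.691), nor did the second activin antagonist Fstl3, at 8.33 to 10.4 CPM in WT and 5.22 to 15.0 CPM in KO lesions (log2 fold change 0.036, adjusted p = 0.971). Ltbp2, another of the latent TGF-beta binding family, picked out after its values were seen, stood at 69.2, 73.1 and 94.4 CPM in WT, against 10.8, 12.4 and 67.4 in KO lesions (log2 fold change -1.39, not called). Its groups did not overlap, but KO3 was close to WT1.

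Smad3, Smad4 and Smad7 were lower in every KO lesion than in any WT lesion, by amounts that differed. Of the 19 SMADs and regulators tested, 5 did not overlap between groups, 4 of them lower in KO lesions. Nedd4l, picked out after its values were seen, was higher in every KO lesion, at 54.9 to 58.5 CPM against 37.5 to 51.4 CPM in WT. Smad3, which carries the signal of both TGF-beta and activin receptors to the nucleus, stood at 62.1, 62.9 and 67.6 CPM in WT1 to WT3 and at 31.6, 36.5 and 44.1 CPM in KO1 to KO3. The means were 64.2 ± 2.98 (SD, n = 3) in WT and 37.4 ± 6.29 (SD, n = 3) in KO lesions, without overlap. KO3, which was high for most of the ligands and receptors, was on the KO side. Its log2 fold change was -0.78 (SE 0.15, edgeR adjusted p = 0.321). It kept an unadjusted p under 0.05 in all 15 alternative analyses, with values from -0.91 to -0.67 and adjusted p-values from 0.0102 (DESeq2) to 0.812. Smad2, its partner, stood at 41.6, 53.8 and 47.0 CPM in WT, against 41.3, 46.8 and 50.5 in KO lesions (log2 fold change -0.039, 95% interval from -0.40 to 0.32). The common SMAD, Smad4, was at 85.7, 87.3 and 90.6 CPM in WT, against 80.5, 84.8 and 82.4 in KO lesions (log2 fold change -0.089, adjusted p = 0.669), and was not called although the groups did not overlap.

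Of 19 SMADs and regulators tested, 3 fell, as with DESeq2, against 5 with limma voom, 4 without KO3 and 1 without KO1 or KO2. Besides Smad3 they were Smad7 and Skil, feedback inhibitors that the pathway itself induces. Smad7, the inhibitory SMAD, stood at 20.7, 28.9 and 22.5 CPM in WT, against 17.1, 16.1 and 18.9 in KO lesions (log2 fold change -0.47, edgeR adjusted p = 0.332). Skil, the SMAD co-repressor SnoN, stood at 107, 184 and 118 CPM in WT, against 91.2, 81.6 and 83.5 in KO lesions (log2 fold change -0.67, edgeR adjusted p = 0.328). Neither gene overlapped between the groups. The call of Skil ended without any 1 of the KO lesions, with log2 fold changes of -0.72, -0.64 and -0.66 without KO1, KO2 and KO3. The call of Smad7 ended without WT2 (-0.31), WT3 (-0.54), KO1 (-0.46) or KO2 (-0.41). Over all 15 alternative analyses, the call ended in 5 for Skil and 7 for Smad7. With each lesion left out, values ran from -0.82 to -0.40 for Skil and from -0.56 to -0.31 for Smad7.

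Of 22 target genes, 4 fell, 1 rose and the median log2 fold change was -0.47. The count that fell was 7 with DESeq2, 13 with limma voom, 14 without KO3, and 1 without KO1 or without KO2. Bhlhe40, a transcriptional repressor, stood at 172, 234 and 211 CPM in WT1 to WT3 and at 130, 106 and 123 CPM in KO1 to KO3, a log2 fold change of -0.78 (SE 0.17, edgeR adjusted p = 0.321). Tgfbi, a matrix protein named for its induction by TGF-beta, stood at 159, 334 and 124 CPM in WT, against 56.6, 57.5 and 109 in KO lesions (log2 fold change -1.47, edgeR adjusted p = 0.328). All KO lesions were below all WT lesions for both genes. Klf10, an early response gene of TGF-beta, stood at 40.3, 48.4 and 46.8 CPM in WT, against 26.5, 22.9 and 39.0 in KO lesions, and fell by 0.62 on the log2 scale. Junb, an AP-1 subunit, stood at 61.9, 234 and 50.6 CPM in WT, against 37.0, 21.7 and 40.1 in KO lesions, and fell by 1.81. Neither gene overlapped between groups, with KO3 close to WT1 for Klf10 and WT2 far above the rest for Junb. The call of Tgfbi ended without KO1 (log2 fold change -1.30) or KO2 (-1.31), and that of Junb without KO1 (-1.90), KO2 (-1.58) or KO3 (-1.97). That of Klf10 ended without WT2 (-0.56), WT3 (-0.61), KO1 (-0.54) or KO2 (-0.46). Over all 15 alternative analyses, the call ended in 3 for Tgfbi, 4 for Junb and 7 for Klf10. With each lesion left out, values ran from -1.85 to -0.93 for Tgfbi, from -2.19 to -0.77 for Junb and from -0.87 to -0.46 for Klf10.

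Snai2, a transcription factor of mesenchymal cells, was the 1 target that rose, at 14.7, 11.9 and 16.2 CPM in WT1 to WT3 and 24.9, 15.6 and 35.8 CPM in KO1 to KO3. KO2 lay within the WT range, and the log2 fold change was 0.83 (edgeR adjusted p = 0.332). The call ended in 7 of the 15 alternative analyses, among them those without WT1 (log2 fold change 0.85), WT2 (0.72), WT3 (0.91), KO1 (0.86) or KO3 (0.50). Ccn2, a matrix growth factor, overlapped throughout, at 93.7 to 280 CPM in WT and 87.4 to 237 CPM in KO lesions (log2 fold change -0.16, adjusted p = 0.904).

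**Figure D5:**
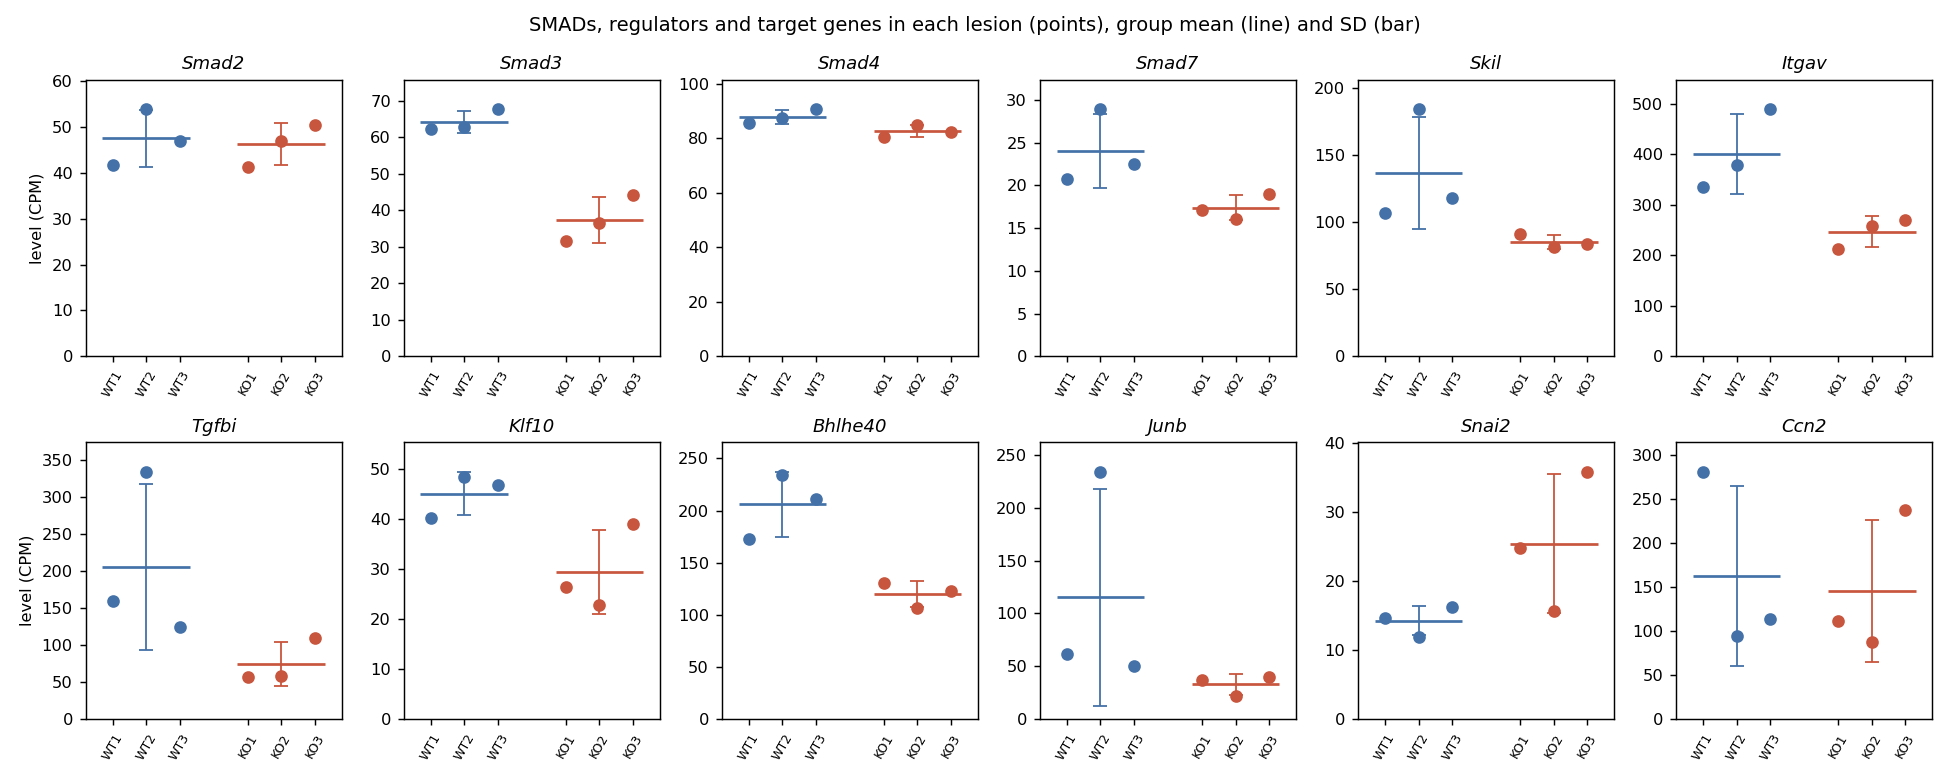
Level (CPM, linear axes from 0) of SMADs, regulators and target genes in each lesion, with WT in blue and KO in red, the group mean as a line and the SD as a bar that ends at the axis where it would pass below 0. Smad3 is at 62.1 or more in WT and at 44.1 or less in KO lesions, whereas Smad2 and Ccn2 overlap between the groups.

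In the BMP arm, which signals through other SMADs, 2 of 15 genes fell, against 5 with DESeq2, 8 with limma voom, 5 without KO3 and 1 without KO1 or KO2. Id1, a direct target of BMP signalling, stood at 29.6, 36.5 and 28.6 CPM in WT1 to WT3 and 18.0, 13.1 and 20.9 CPM in KO1 to KO3. All KO lesions were below all WT lesions, with a log2 fold change of -0.86 (SE 0.22, edgeR adjusted p = 0.321), and the unadjusted call held in all 15 alternative analyses. Bmp2, a ligand of the decidua, stood at 11.1, 8.67 and 7.22 CPM in WT, against 5.54, 5.16 and 6.96 in KO lesions (log2 fold change -0.61, edgeR adjusted p = 0.332). Its call ended in 9 of the 15 alternative analyses, among them those without WT1 (-0.43), WT2 (-0.64), KO1 (-0.57) or KO2 (-0.52).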

How the data were processed

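RNA of 3 WT and 3 KO ectopic lesions was sequenced from TruSeq Stranded mRNA libraries. The authors deposited raw, unnormalized counts per gene. The submitters' processing notes name Trimmomatic, featureCounts, DESeq2 and GRCm39, whereas the methods give GRCm38; the aligner is not given in the sources used here. Symbols, lengths and coordinates were taken from GENCODE M21 on GRCm38, where 51948 of 56884 identifiers matched without their version. Counts without a symbol made up 3.04% to 3.56% of a library. Promoter sequences are from RefSeq (GRCm38.p6).

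The model was fitted in R 4.3.3 with edgeR 4.0.16: filterByExpr (18177 genes kept), TMM (factors 0.962 to 1.05), a quasi-likelihood fit with genotype alone, and Benjamini-Hochberg adjustment over all tested genes. The common biological coefficient of variation was 44.2%. Standard errors are the log2 fold change divided by the root of F. CPM used TMM factors and no prior count, and TPM used the summed exon length. Ratios were tested with exact two-sided permutation tests (scipy 1.17.1). The fit was tested on simulated data. Library totals were 45370342 to 57239184 counts, without molecular identifiers, so that counting error understates the error. The methods give 3 donors per genotype but do not tie donors to libraries, so p-values measure the spread between these lesions.

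Alternatives were DESeq2 size factors, upper quartile scaling, no filter beyond 1 count, a minimum of 10 counts per library, the Wald test of DESeq2 1.42.0, voom of limma 3.58.1 with quality weights, a block for the replicate number, and each lesion left out. Chosen after seeing the data were fits without WT3 and KO2, and without WT1 and WT3. The members and lists were chosen with earlier results of these data known. Named genes are the 10 members, Dnmt3a, list genes with an unadjusted p under 0.05 (up to 4 per direction) and 13 fixed pathway genes, of which 1 is not reported here; others are marked. Besides the marker lists reported, platelets, mesothelium and smooth muscle were summed: 9.35 to 39.9, 411 to 809 and 1119 to 4957 CPM. Endometrial stroma and hormone receptor markers summed to 446 to 759 CPM in WT and 753 to 1258 CPM in KO lesions. At an unadjusted edgeR p under 0.05, 5 of the 9 stroma and hormone receptor markers and 5 of the 8 smooth muscle markers were higher in KO lesions (Actg2 at 62.3 to 109 CPM in WT, against 169 to 318 in KO). Des, which skeletal muscle also expresses, made up much of the smooth muscle sum in WT1 and WT3, at 2675 and 1357 CPM.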

Additional observations from a re-analysis of the deposited data

How the results depend on the processing

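No member had an adjusted p-value under 0.05 in any of the 15 alternatives by edgeR, DESeq2 or limma, among which DESeq2 gave no p-value for Inha. At an unadjusted p under 0.05, the count of members lower in KO lesions, 0 of 10, was 0 to 5 with each lesion left out (5 without KO3, 1 without WT2), 5 with limma voom, and 1 without WT3 and KO2 and 1 without WT1 and WT3. The count higher was 0 to 1 with each lesion left out (1 without KO2) and 1 with upper quartile scaling. The member called lower without WT3 and KO2 was Inha (-1.76), whose log2 fold change in the main fit was 2.49. Limma voom called Tgfb1 (-0.80), Tgfbr1 (-0.34), Tgfbr2 (-0.63), Inhba (-1.31) and Fst (-1.13), upper quartile scaling Inhbb (0.57), and the fit without WT1 and WT3, which assumes that WT2 varies like the KO lesions, Tgfb1 (-1.43). For Inhba, Fst and Tgfbr2, the limma voom values lay nearer to those without KO3 (-1.42, -1.25 and -0.72) than to the main fit (-0.42, -0.51 and -0.38). That of Tgfb1 lay nearer to the main fit (-0.85). With each lesion left out, the log2 fold change ran from -1.22 to -0.45 for Tgfb1, -0.62 to 0.11 for Tgfb2, -0.46 to 0.041 for Tgfb3, -0.33 to -0.14 for Tgfbr1, -0.72 to -0.18 for Tgfbr2, -0.44 to 0.090 for Tgfbr3, -1.42 to -0.012 for Inhba, 0.29 to 0.65 for Inhbb, -1.33 to 3.05 for Inha and -1.25 to -0.23 for Fst. It ran from -0.45 to 0.33 for Fstl3, -0.13 to 0.062 for Smad2 and -0.71 to 0.49 for Ccn2. For receptors it ran from 0.23 to 0.68 for Acvr1b, 0.040 to 0.33 for Acvr2a, -0.62 to -0.11 for Acvr2b and -0.92 to -0.060 for Eng. For Ltbp1 it ran from -0.62 to -0.0093. At an unadjusted p under 0.05, limma voom called Acvr1b (0.71) and Ltbp1 (-0.68), and the fit without KO3 called Acvr1b (0.68) and Eng (-0.92).

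Signs turned without WT3 and KO2 for Tgfb2 (0.045), Tgfbr3 (0.029) and Inha (-1.76), and without WT1 and WT3 for Tgfb2 (0.29), Tgfb3 (0.44), Tgfbr1 (0.079), Acvr2b (0.25), Ltbp1 (0.53) and Ccn2 (0.62). They also turned with upper quartile scaling for Smad2 (0.057) and Smad4 (0.0062), and for Fstl3 with limma voom (-0.37) and the replicate block (-0.095). The Dnmt3a call was lost without WT3 and KO2 (-0.54) and without WT1 and WT3 (-0.42). Itgav and Bhlhe40 kept their calls with each lesion left out, but these were lost without WT3 and KO2 (-0.56 and -0.68), and that of Itgav (-0.64) without WT1 and WT3. The causes were not tested.

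Of the pathway genes, 10 were lower in KO lesions, against 18 with DESeq2, 38 with limma voom, 4 without WT3 and KO2 and 5 to 36 with each lesion left out (36 without KO3, 5 without KO1 or KO2). Over all genes tested the count lower moved too, from 1484 to 2307, 2882, 615 and 703 to 2366 in the same order (2366 without KO3, 703 without KO1, 798 without KO2). The 1 that was higher became 5 with upper quartile scaling, 3 without a filter, 3 with DESeq2, 5 with limma voom, 4 without WT1 and WT3 and 0 to 3 with each lesion left out. After adjustment the count of 0 became 4 with DESeq2, and 0 to 1 with each lesion left out (Mstn, without WT2).

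Replicate numbers did not pair the lesions: deviations of lesions with the same number correlated at 0.032, -0.15 and -0.20. With the replicate block, 0 members were called, and pathway genes lower in KO lesions numbered 8 and higher 1. With the block as a paired sign-flip test, the exact p of the Fst to activin ratio was 0.25. With each lesion left out, the KO minus WT difference in share ran from -15.6 to -0.86 percentage points for Tgfb1, from -0.51 (without KO3) to 5.63 for Tgfb2 and from -0.30 (without WT2) to 12.1 for Tgfb3, so that the last 2 changed sign. On the log2 scale it ran from -1.74 to -0.67 for the Inhba to Inhbb ratio and from 0.12 to 0.30 for the Tgfbr3 ratio. With 3 lesions a group, an Inhba change within the interval from -1.92 to 1.08 on the log2 scale could not be resolved.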
